A study of Mus musculus with 8 samples.

Results

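The genes described here are 10 genes of the T cell response to triggering of the antigen receptor: Egr1, Egr2 and Egr3, Nr4a1, Nr4a2 and Nr4a3, Nfatc1 and Nfatc2, Myc and Dusp2. They were chosen by name, and each symbol was found once among the 54446 entries of the colon files and once among the 55341 entries of the culture files. All 10 passed the filter on low counts in every fit. RNA sequencing gave read counts for them in 8 mouse CD4+ T cell libraries, and all cells had been restimulated for 2 hours with PMA and ionomycin. Unstimulated cells were not analysed here, so the values are levels after stimulation, not induction.

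The colon libraries came from a transfer model of colitis. Naive CD4+ T cells that were Cd4_cre Rora_fl/fl (knockout, 2 libraries) or Rora_fl/fl (control, 2 libraries) were given to Tcrbd-/- recipients, which have no T cells of their own, and CD4+ T cells were recovered from the colon after 6 weeks. In the knockout, Cre is driven by Cd4, so Rora, which encodes the nuclear receptor RORα, is deleted in T cells before transfer. Both genotypes carry the floxed alleles. For the culture libraries, naive CD4+ T cells were stimulated for 4 days on plate-bound antibodies to CD3 and CD28 in the presence of IL-6+IL-1β+IL-23 or of TGF-β+IL-6, mixes that are both used to make T helper 17 (Th17) cells. Each mix has 1 knockout and 1 control library. By its title, the series asked about RORα and the kinase complex mTORC1 in T cell colitis.

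PMA activates protein kinase C and through it the Ras and MAP kinase pathway, and ionomycin raises intracellular calcium, which activates the phosphatase calcineurin. Calcineurin moves NFAT proteins into the nucleus, and MAP kinases act on factors bound at the promoters of immediate-early genes. EGR proteins are zinc finger transcription factors. EGR2 and EGR3 are known for restraining T cell responses, and NR4A proteins are orphan nuclear receptors known for the same role in tolerant and exhausted T cells. NFATc1 and NFATc2 carry the calcium signal to cytokine genes, MYC drives growth and metabolism of dividing T cells, and DUSP2 is a nuclear phosphatase that switches MAP kinases off.

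Promoter sequences are shown for the NR4A genes and for Egr2, because the NR4A members have a feature in common there. The RefSeq promoter table (GRCm38.p6) held 6 of the 10 genes, and the 250 bases before each start were searched on both strands. The letters TGACG, the core of a cyclic AMP response element, occurred 4 times in each of Nr4a1, Nr4a2 and Nr4a3. At least 1 such core was found in 17.8% of 32851 promoter windows of that length, and 4 or more in 0.137%. The full element TGACGTCA, which contains the core on both strands, was in 1.55% of windows and in none of these members. A window of Egr2 held 2 cores and a CArG box, the site of serum response factor, which 1.47% of windows held. Capitals mark the cores, on either strand, and the CArG box. These matches describe letters only and are not evidence of binding.
Nr4a1, chr15:101266596-101266845, plus strand: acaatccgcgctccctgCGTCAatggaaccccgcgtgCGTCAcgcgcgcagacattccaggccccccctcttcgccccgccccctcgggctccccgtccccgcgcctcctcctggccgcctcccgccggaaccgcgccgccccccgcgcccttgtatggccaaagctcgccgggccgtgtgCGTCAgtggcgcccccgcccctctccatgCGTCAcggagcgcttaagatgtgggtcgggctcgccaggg
Nr4a2, chr2:57124004-57124253, minus strand: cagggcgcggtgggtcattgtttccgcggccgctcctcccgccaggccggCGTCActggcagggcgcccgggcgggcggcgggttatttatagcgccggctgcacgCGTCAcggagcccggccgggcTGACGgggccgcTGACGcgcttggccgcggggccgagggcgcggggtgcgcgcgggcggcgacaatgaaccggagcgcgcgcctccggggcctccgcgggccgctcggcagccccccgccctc
Nr4a3, chr4:48045055-48045152, plus strand: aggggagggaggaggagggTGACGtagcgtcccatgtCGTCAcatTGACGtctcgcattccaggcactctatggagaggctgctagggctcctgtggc
Egr2, chr10:67537619-67537868, plus strand: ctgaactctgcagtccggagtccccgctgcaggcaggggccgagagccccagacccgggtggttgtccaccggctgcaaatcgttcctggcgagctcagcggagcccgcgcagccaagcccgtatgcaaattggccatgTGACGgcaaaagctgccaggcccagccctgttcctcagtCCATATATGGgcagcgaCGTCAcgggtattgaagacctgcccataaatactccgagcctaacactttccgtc
The stretch shown for Nr4a3 is 98 bases long and ends where the first annotated exon begins, so 3 of its 4 cores are seen. The stretches of Nr4a1 and Egr2 lie inside the span of their genes, before internal starts and outside annotated exons.

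In GENCODE M21 (GRCm38, the assembly also called mm10) all 10 genes are protein coding. Nr4a1 spans chr15:101254269-101274795, Nr4a2 spans chr2:57106830-57124003 and Nr4a3 spans chr4:48045153-48086447. Egr2 spans chr10:67535475-67542188 and Egr3 chr14:70077203-70082614, while Egr1 and Nfatc1 are on chromosome 18. Myc spans chr15:61985391-61990374, Nfatc2 spans chr2:168476410-168601657 and Dusp2 spans chr2:127336159-127338376. No exon of a member shares bases with another annotated gene, so the lack of a stated strand setting does not mix their reads with those of a neighbour.

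Library totals were 13778437 and 14440260 counts for knockout colon, 13176752 and 14967756 for control colon, and 15252700 to 15922696 for the cultures. Levels are read counts scaled to library size (CPM) after TMM scaling over the 8 libraries together. Rora, the targeted gene, had 146.8 and 164.0 CPM in knockout colon against 278.3 and 321.8 CPM in control colon. It had 53.8 CPM in the knockout and 139.2 CPM in the control culture with IL-6+IL-1β+IL-23, and 173.2 CPM against 455.3 CPM with TGF-β+IL-6. All knockout libraries were thus below their controls, with reads left. The summed level of 16 conventional T cell markers was 11970.8 and 11819.5 CPM in knockout colon, 15291.4 and 14832.9 CPM in control colon, and 7288.7 to 7835.9 CPM in culture. Markers of other cells moved with genotype in colon. Of 11 epithelial markers tested, 10 were higher in the knockout (summed level 154.4 and 153.5 CPM against 58.9 and 55.6 CPM), as were 6 of 7 B and plasma cell markers (2301.3 and 2502.9 CPM against 658.6 and 647.8 CPM). Fibroblast markers were higher for 10 of 11 and macrophage markers for 6 of 10. Of 8 dendritic cell markers 5 were higher and 2 lower, and of 3 neutrophil and mast cell markers 1 was higher and 1 lower. The summed level of the latter was lower in the knockout (134.8 and 120.9 CPM against 224.3 and 227.2 CPM). Kit alone gave 126.1 and 111.1 CPM against 219.2 and 220.2 CPM of that sum, so it describes Kit rather than these cell types. Of the 16 T cell markers 12 were lower and 1 higher. The part of these cells in the colon results below was not tested. In bulk RNA, fewer cells of a type and less RNA per cell cannot be told apart.

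Percentiles here are among the joined genes that passed the filter on low counts. Per kilobase of exon, 9 members were at or above the 91.01 percentile in every colon library, and Nfatc2 was between the 74.91 and 79.19 percentile. Nr4a1 was the highest member in every colon library, at 897 and 816 CPM per kb in knockout and 891 and 883 CPM per kb in control cells. That placed it at the 99.65 to 99.79 percentile. Dusp2, Egr1, Nr4a3 and Myc followed with levels per kb between 296.5 and 491.5. Myc overlapped each of the others, while Nr4a3 was below Dusp2 and Egr1 in every colon library. Egr2 came next with 289.5 and 270.6 CPM per kb in knockout and 244.5 and 237.8 CPM per kb in control cells. Nfatc1, Nr4a2 and Egr3 came after it without overlap in that order, and Nfatc2 was the lowest member in every colon library, at 18.3 and 15.8 against 17.4 and 15.0 CPM per kb.

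The order was different in culture. Myc was the highest member per kb in all 4 culture libraries, at 359.6 and 370.5 CPM per kb in knockout and control cells with IL-6+IL-1β+IL-23 and 464.2 and 445.4 CPM per kb with TGF-β+IL-6. Dusp2 came next in each. The lowest member was Nr4a2 with IL-6+IL-1β+IL-23, at 7.01 CPM per kb in knockout and 5.41 CPM per kb in control cells. Nr4a3 had 5.43 CPM per kb in the same control library, close to Nr4a2. With TGF-β+IL-6 the lowest was Nfatc2, at 11.9 CPM per kb in knockout and 13.3 CPM per kb in control cells. Colon and culture were not tested against each other, since source, handling and gene annotation differ together.

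The members spread very unevenly over the 8 libraries. Nr4a3 ranged 62.6-fold between its highest and lowest library, Nr4a1 21.6-fold, Nr4a2 16.9-fold, Egr2 15.2-fold and Egr1 11.4-fold. Nfatc1 ranged 6.77-fold and Egr3 5.91-fold. Dusp2 ranged 2.65-fold, Nfatc2 1.79-fold and Myc 1.66-fold. Of the 10 genes, 9 had their highest level in a colon library, and Nfatc2 had its highest in control cells with IL-6+IL-1β+IL-23. Myc was highest in a control colon library and lowest in a knockout one.

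**Figure D1:**
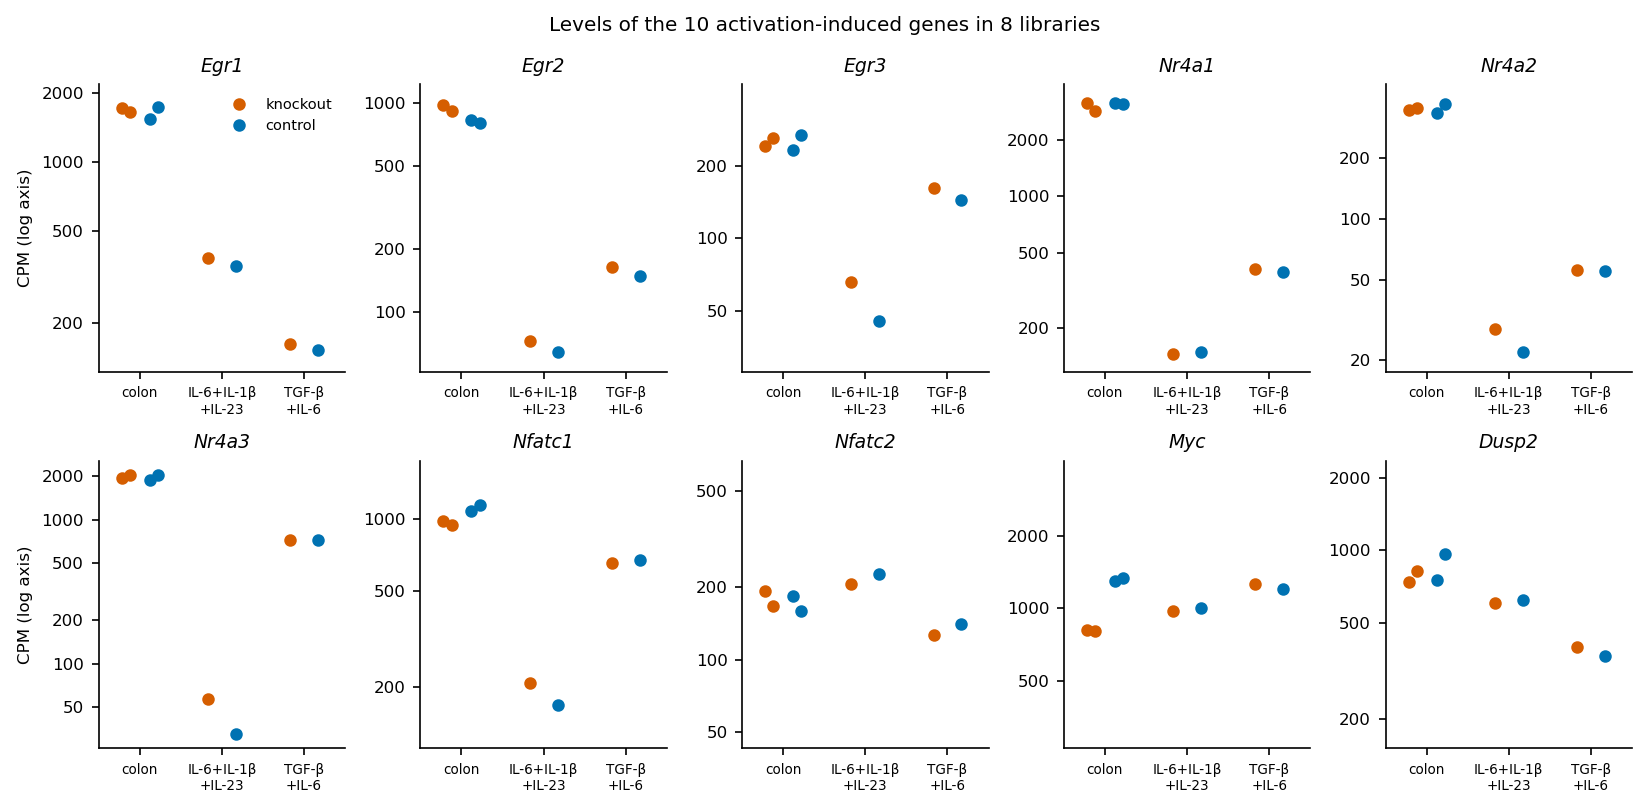
Level of each member in CPM on a log axis, with 1 point per library, for knockout and control cells from colon (2 libraries each) and from each cytokine mix (1 library each). Only Myc and Egr2 show knockout and control colon libraries apart beyond the test's threshold.

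The cytokine mix moved every member. In the fit of the 4 cultures, where the genotypes served as repeats of the mix difference, edgeR's quasi-likelihood test called 10 of 10 members at an adjusted p under 0.05, against 69.8% of the 13983 genes tested. With IL-6+IL-1β+IL-23, 3 members were higher (Egr1, Nfatc2 and Dusp2) and 7 were lower (the other members), against 35.8% and 34% of all genes. The fit has 1 residual degree of freedom and no replicate within a combination of genotype and mix, so a p-value reflects how much these libraries vary and no more.

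Among the EGR genes the mixes pulled in opposite directions. Egr1 had 383.7 CPM in knockout and 353.7 CPM in control cells with IL-6+IL-1β+IL-23, against 161.9 and 152.5 CPM with TGF-β+IL-6. Egr2 had 72.4 and 64.7 CPM with IL-6+IL-1β+IL-23, knockout and control, against 163.6 and 149.1 CPM with TGF-β+IL-6. Egr3 had 65.7 and 45.4 CPM with IL-6+IL-1β+IL-23, against 162.8 and 144.1 CPM with TGF-β+IL-6. Both genotypes thus had more Egr1 and less Egr2 and Egr3 with IL-6+IL-1β+IL-23. The log2 fold changes were 1.23 ± 0.07 for Egr1 (SE, adjusted p = 1.18e-06, edgeR), -1.19 ± 0.07 for Egr2 (adjusted p = 1.72e-06) and -1.48 ± 0.10 for Egr3 (adjusted p = 2.89e-06).

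The summed level of the EGR family per kb was nearly the same in both mixes while its make-up differed. The sum was 121.8 CPM per kb in knockout and 108.2 CPM per kb in control cells with IL-6+IL-1β+IL-23, and 121.2 and 110.6 CPM per kb with TGF-β+IL-6. Egr1 made up 70.3% and 72.9% of that sum with IL-6+IL-1β+IL-23 and 29.8% and 30.8% with TGF-β+IL-6. Egr3, the smallest share in colon at 7.51% to 8.86%, held 12.2% and 9.53% with IL-6+IL-1β+IL-23 and 30.5% and 29.6% with TGF-β+IL-6. For the Egr1 share, colon cells were between the mixes, at 52.8% in both knockout libraries and 53.7% and 56.6% in control libraries. The Egr3 share in colon was below that of both mixes.

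All NR4A genes were lower with IL-6+IL-1β+IL-23, Nr4a3 by far the most. Nr4a3 had 57.2 CPM in knockout and 32.5 CPM in control cells with IL-6+IL-1β+IL-23, against 723.4 and 716.6 CPM with TGF-β+IL-6. Its log2 fold change was -4.04 ± 0.17 (SE, 95% interval -4.43 to -3.65, adjusted p = 3.36e-07, edgeR), which is 16.5-fold lower and ranked 38 from the lowest of 13983 genes. The reads behind the low values were 962 in knockout and 539 in control cells. Nr4a1 had 146.0 and 149.2 CPM with IL-6+IL-1β+IL-23, knockout and control, against 410.9 and 397.9 CPM with TGF-β+IL-6 (log2 fold change -1.45 ± 0.07, SE, adjusted p = 5.56e-07, edgeR). Nr4a2, the least abundant of the 3, had 28.5 and 22 CPM against 56.2 and 55.5 CPM (log2 fold change -1.16 ± 0.11, SE, adjusted p = 2.09e-05, edgeR).

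The NR4A family as a whole therefore differed in level as well as in make-up. Its sum was 58.2 CPM per kb in knockout and 53.4 CPM per kb in control cells with IL-6+IL-1β+IL-23, against 251.8 and 246.8 CPM per kb with TGF-β+IL-6. Nr4a3 and Nr4a1 were nearly equal with TGF-β+IL-6, at 48.0% and 48.5% for Nr4a3 and 46.5% and 46.0% for Nr4a1 in knockout and control cells. With IL-6+IL-1β+IL-23, Nr4a1 made up 71.5% and 79.7% and Nr4a3 16.4% and 10.2%. In colon the sum was 1304 and 1243 CPM per kb in knockout and 1289 and 1313 CPM per kb in control cells, with Nr4a1 at 65.6% to 69.2% and Nr4a3 at 24.4% to 27.4%.

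The NFAT genes moved apart. Nfatc1, which activated T cells induce through NFAT itself, had 208.4 CPM in knockout and 169.4 CPM in control cells with IL-6+IL-1β+IL-23, against 657.0 and 673.9 CPM with TGF-β+IL-6. Nfatc2, which resting T cells already express, had 207.0 and 226.3 CPM with IL-6+IL-1β+IL-23, against 126.4 and 141.1 CPM with TGF-β+IL-6. The log2 fold changes were -1.82 ± 0.09 for Nfatc1 (SE, adjusted p = 7.83e-07, edgeR) and 0.70 ± 0.07 for Nfatc2 (adjusted p = 2.81e-05). Nfatc2 made up 41.2% and 48.5% of their summed level per kb in knockout and control cells with IL-6+IL-1β+IL-23, against 12% and 12.9% with TGF-β+IL-6 and 8.90% to 12.2% in colon.

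**Figure D2:**
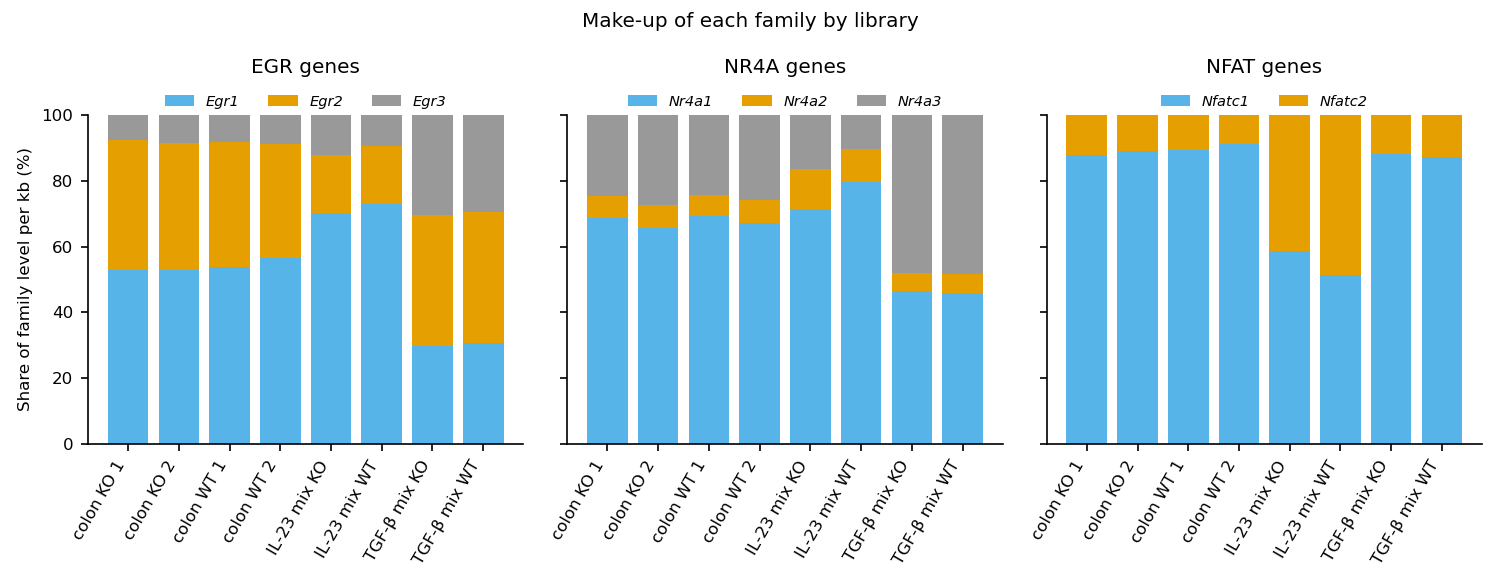
Share of each gene in its family's summed CPM per kilobase of exon, in percent, with 1 bar per library. With IL-6+IL-1β+IL-23, Egr1, Nr4a1 and Nfatc2 take larger shares than with TGF-β+IL-6 in both genotypes, while the 4 colon bars of each family are alike.

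Myc changed least of the members that fell, and Dusp2 rose. Myc had 977.0 CPM in knockout and 1007 CPM in control cells with IL-6+IL-1β+IL-23, against 1261 and 1210 CPM with TGF-β+IL-6 (log2 fold change -0.32 ± 0.07, SE, adjusted p = 0.00296, edgeR). Dusp2 had 604.9 and 619.2 CPM against 395.1 and 365.7 CPM (log2 fold change 0.69 ± 0.07, SE, adjusted p = 3.92e-05, edgeR). The Myc difference was below the median absolute log2 change of all genes, 0.65, although it passed the test.

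Set 1 library against 1, the mix difference went past 2-fold for 6 members in knockout cells (1 higher and 5 lower, against 11.1% and 9.1% of genes, or 20.2% in all) and for 7 in control cells (1 higher and 6 lower, against 11% and 9.52%, or 20.6%). The gene that differed between those counts was Nr4a2, 1.97-fold lower with IL-6+IL-1β+IL-23 in knockout and 2.54-fold lower in control cells. Nr4a3 was 12.6-fold lower in knockout and 22.1-fold lower in control cells. With 1 library per combination, the interaction of mix and genotype could not be tested. Some other-cell markers moved with the mix too: the summed fibroblast markers had 382.4 and 417.5 CPM with IL-6+IL-1β+IL-23 against 5.39 and 4.68 CPM with TGF-β+IL-6, of which Lum alone gave 352.9 and 386.5 CPM against 1.43 and 1.21 CPM. Summed dendritic cell markers had 292.1 and 309.1 CPM against 39 and 48.5 CPM, mostly from H2-Ab1 and Cd74, and summed macrophage markers had 30.5 and 32.5 CPM against 2.52 and 2.14 CPM, mostly from Cd68. Of the markers tested, 4 of 5 for fibroblasts, 2 of 2 for macrophages and 4 of 8 for dendritic cells were higher, and 1 of the dendritic ones was lower. Epithelial markers were higher for 3 of 4 and lower for 1. The T cell markers moved with the mix as well, 6 of 16 higher and 8 lower. Col3a1, Lyz2, C1qa, C1qb, C1qc, Fcgr1 and Clec9a were at 0 in all 4 cultures. The part of cells other than T cells in the mix results was not tested.

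In colon, knockout cells had less Myc RNA. Myc had 814.1 and 805.7 CPM in knockout colon against 1299 and 1335 CPM in control colon, so that the groups were far apart. The means were 809.9 ± 5.95 CPM in knockout and 1317 ± 25.6 CPM in control cells (SD, n = 2 each). The log2 fold change was -0.70 ± 0.08 (SE, 95% interval -0.86 to -0.53, adjusted p = 4.37e-05, edgeR's quasi-likelihood test), or 1.62-fold lower. In this comparison 2 of 10 members were called, 1 higher and 1 lower, against 39.5% of the 13101 genes tested (19.6% higher, 19.9% lower). The share of members called was thus below that of all genes. Myc was called lower under every alternative tried. The smallest value was -0.36 (adjusted p = 0.00312, edgeR), with libraries scaled on their T cell markers.

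Egr2 was the called member that was higher. It had 983.9 and 919.7 CPM in knockout colon against 830.8 and 808.2 CPM in control colon, means of 951.8 ± 45.4 and 819.5 ± 16.02 CPM (SD, n = 2 each). The log2 fold change was 0.22 ± 0.08 (SE, 95% interval 0.05 to 0.39, adjusted p = 0.0401, edgeR). The call was lost without knockout replicate 1 (0.15, adjusted p = 0.261, edgeR), without control replicate 1 (0.23, adjusted p = 0.0951) and without control replicate 2 (0.19, adjusted p = 0.186). Scaling on T cell markers moved it to 0.56 and library totals to 0.41.

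Nfatc1 was close to the threshold. It had 983.6 and 948.8 CPM in knockout colon against 1085 and 1147 CPM in control colon, again with no overlap. The log2 fold change was -0.20 ± 0.08 (SE, adjusted p = 0.0561, edgeR) and was not called, although it was with no filter on low counts (adjusted p = 0.0285) and by DESeq2's Wald test (adjusted p = 0.0484). With libraries scaled on T cell markers it was 0.13 and not called.

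The other 7 members had overlapping groups in colon. In all, 3 members did not overlap (Egr2, Nfatc1 and Myc), against 70.5% of the genes tested. Nr4a1 had 3149 and 2862 CPM in knockout against 3128 and 3097 CPM in control cells, and Nr4a3 had 1927 and 2036 CPM against 1882 and 2034 CPM. Their log2 fold changes had 95% intervals from -0.22 to 0.13 and from -0.15 to 0.20, which bound the difference these libraries allow on the TMM scale. Nr4a2 had 346.6 and 353.4 CPM in knockout against 336.4 and 370.3 CPM in control cells, with an interval from -0.18 to 0.17. The family sum per kb and the share of each NR4A gene in colon overlapped between genotypes.

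Egr1 had 1727 and 1651 CPM in knockout against 1543 and 1743 CPM in control colon, and Egr3 had 241.5 and 260.6 CPM against 232.4 and 268.3 CPM. The log2 intervals were -0.14 to 0.23 for Egr1 and -0.18 to 0.20 for Egr3. Neither showed a difference beyond the spread of the replicates. Nfatc2 had 193.6 and 167.1 CPM in knockout against 183.9 and 158.7 CPM in control cells (interval -0.14 to 0.30), and Dusp2 had 739.3 and 822.9 CPM against 752.5 and 967.9 CPM (interval -0.37 to 0.11). Dusp2 varied most among the colon replicates of control cells, 860.2 ± 152.3 CPM (SD, n = 2).

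The colon directions depend on how libraries are scaled. Against the TMM scale, library totals moved the median gene by 0.19 and scaling on the 16 T cell markers moved it by 0.33 on the log2 scale. With library totals 4 members were called higher (Egr1, Egr2, Nr4a3 and Nfatc2), against 32.7% of all genes, and 1 lower (Myc), against 9.63%. With T cell marker scaling 7 were higher (all but Nfatc1, Myc and Dusp2), against 44.1%, and Myc was lower, against 5.27%.

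**Figure D3:**
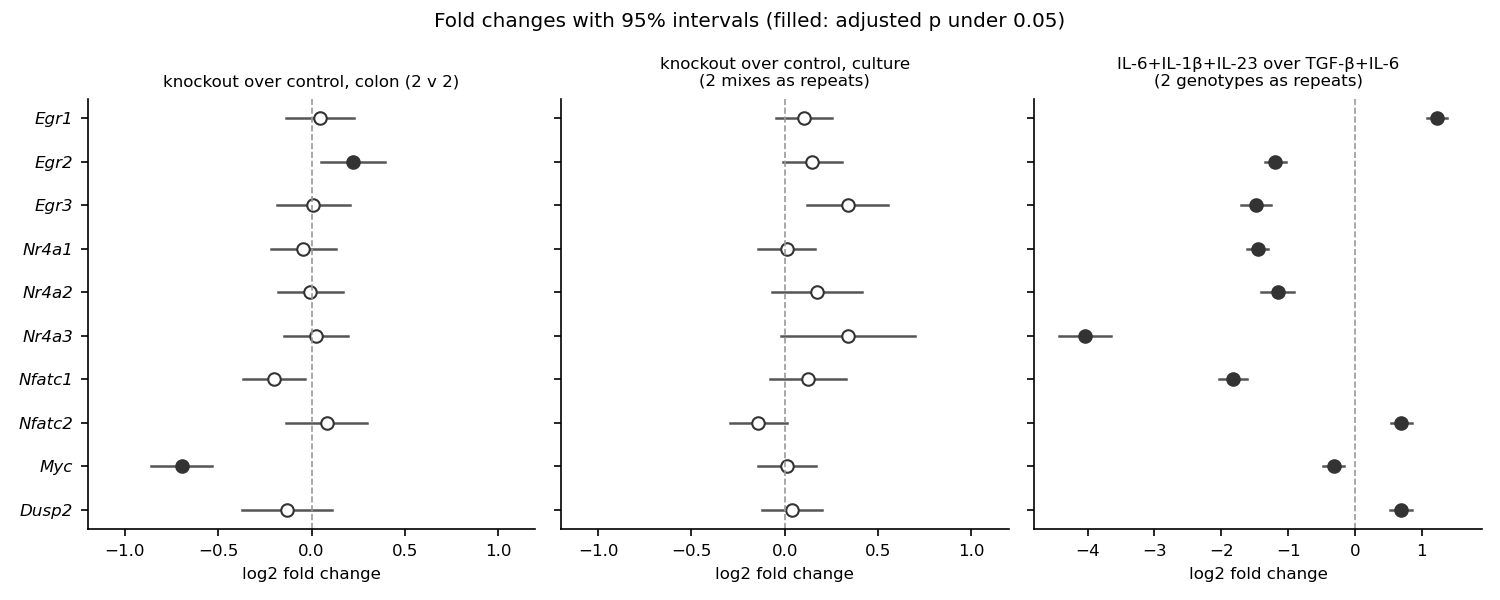
Log2 fold change of each member with its 95% interval, knockout over control in colon and in culture, and IL-6+IL-1β+IL-23 over TGF-β+IL-6 in culture. Filled points passed an adjusted p of 0.05. The mix panel has a wider axis, and all 10 of its points are filled.

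In culture, no member was called by genotype. Over both mixes, edgeR called 0 of 10 members and 4 of 13983 genes (0.0286%), with 500 genes and 1 member, Egr3, at an unadjusted p under 0.05. DESeq2 called 0 members as well. Myc had 977.0 CPM in knockout against 1007 CPM in control cells with IL-6+IL-1β+IL-23, and 1261 against 1210 CPM with TGF-β+IL-6. Its log2 fold change was 0.01 ± 0.07 (SE), with a 95% interval from -0.15 to 0.16 that does not reach the size seen in colon. Egr3 was higher in both knockout cultures, with a log2 fold change of 0.34 ± 0.09 (SE, unadjusted p = 0.00715, adjusted p = 0.956, edgeR), which fails the correction.

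The largest ratio of genotypes within a mix was that of Nr4a3 with IL-6+IL-1β+IL-23, 1.77-fold higher in the knockout (95% counting interval 1.59 to 1.96), against 1.01-fold with TGF-β+IL-6. Egr3 was 1.45-fold higher (1.32 to 1.59) with IL-6+IL-1β+IL-23 and 1.13-fold higher with TGF-β+IL-6. Nr4a2 was 1.30-fold higher (1.14 to 1.49) and 1.01-fold higher, and Nfatc1 was 1.23-fold higher (1.18 to 1.30) and 0.97-fold. Each of these 4 had a smaller ratio with TGF-β+IL-6. Egr2 and Nr4a1, also lower with IL-6+IL-1β+IL-23, had ratios of 1.12 and 0.98 in that mix. No member passed 2-fold in either mix, against 0.207% and 0.157% of genes. The intervals cover counting error between 2 libraries only, and a difference between the genotypes was not tested within a mix.

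The genotype effects in colon and culture differed for Myc. In the fit of all 8 libraries the effect in colon minus that in culture was -0.71 ± 0.11 on the log2 scale (SE, 95% interval -0.94 to -0.48, adjusted p = 6.52e-04, edgeR), and -0.41 (adjusted p = 0.0179) with T cell marker scaling. Myc was the 1 member called of 10, against 17.3% of the 14957 genes tested (7.71% higher, 9.55% lower). Nfatc1 (-0.33 ± 0.12, adjusted p = 0.0771, edgeR) and Egr3 (-0.34 ± 0.14, adjusted p = 0.111) had an unadjusted p under 0.05 and were not called. For Egr2 the difference was 0.07 ± 0.11 (95% interval -0.16 to 0.30), so its genotype effect was not shown to differ between colon and culture.

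Related genes were described by lists written from general knowledge, by counts of calls and medians beside those of all genes. Over all genes tested, 35.8% were higher and 34% lower by mix, and 19.6% were higher and 19.9% lower in knockout colon. Of 30 MYC-responsive genes, 26 (86.7%) were lower and 1 (3.33%) was higher with IL-6+IL-1β+IL-23, with a median log2 change of -0.92 against 0.02 for all genes. Cad, which starts pyrimidine synthesis, had 86.9 and 82.2 CPM in knockout and control cells with IL-6+IL-1β+IL-23 against 282.7 and 261.0 CPM with TGF-β+IL-6. Polr1b, a subunit of RNA polymerase I, had 66.1 and 60.2 CPM against 208.4 and 199.8 CPM. Both fell by more than Myc itself, with log2 changes of -1.68 ± 0.07 and -1.69 ± 0.07 (SE). In colon, 11 of the 30 (36.7%) were lower and 6 (20%) higher in the knockout, with a median of -0.13 on the TMM scale against 0.01 for all genes. With library totals and with T cell marker scaling the medians were 0.06 and 0.21, and those of all genes were 0.20 and 0.35. A scaling moves every gene by nearly the same amount. The list's distance of 0.14 below the median of all genes was therefore bound to stay and is not a check. Under these scalings, in that order, 10 (33.3%) and 13 (43.3%) of the list were higher, against 32.7% and 44.1% of all genes. Under each of them 6 genes (20%) of the list were lower, against 9.63% and 5.27% of all genes.

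The MYC-responsive genes named by smallest p in colon were all lower. Each fell by more than the other scalings moved the median gene (0.19 and 0.33), so a kept direction was bound to follow. Hk2 (hexokinase 2, the entry to glycolysis) had 127.0 and 103.0 CPM in knockout against 266.5 and 228.8 CPM in control colon, with a log2 fold change of -1.10 ± 0.11 (SE). Ldha, lactate dehydrogenase A, had 871.7 and 859.1 CPM against 1404 and 1394 CPM. Odc1, ornithine decarboxylase of polyamine synthesis, had 2020 and 1964 CPM against 3230 and 2999 CPM. All were lower in both knockout libraries, and for each the effect in colon differed from that in culture (adjusted p of 1.97e-04, 0.00117 and 0.00179, edgeR). Hk2, Ldha and Odc1 were picked for the smallest p in these colon libraries, so those calls are not a separate test. Against the 11 genes of the list called lower, 6 were called higher, named here after their values were seen. They were Ccnd2 (log2 fold change 0.59), Gnl3 (0.58), Wdr43 (0.51), Nop58 (0.47), Ncl (0.45) and Npm1 (0.25). Among 15 MYC partners tested in colon, 6 (40%) were lower and 2 (13.3%) higher, against 19.9% and 19.6% of all genes. Mxd1, a MAX partner that opposes MYC, was lower in knockout colon (98.5 and 92.8 CPM against 183.7 and 186.4 CPM), while Mga, another MAX partner, and Fbxw7, which marks MYC for degradation, were higher. By mix, 8 of 17 partners (47.1%) were higher and 8 lower, against 35.8% and 34% of all genes. Mxd1 (234.1 and 259.6 CPM against 37.2 and 42.7 CPM) and Mxi1 (236.0 and 235.4 CPM against 49.9 and 56 CPM), both opponents of MYC, were higher with IL-6+IL-1β+IL-23. Mycn, a relative of Myc named here after its values were seen, had 262 and 242 counts with IL-6+IL-1β+IL-23 against 5 and 2 counts with TGF-β+IL-6 (log2 fold change 6.18 ± 0.28, SE), which is 15.6 and 14.6 CPM against 0.29 and 0.12 CPM. It thus stayed far below Myc in every library.

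Of 25 tested genes of calcium, calcineurin and NFAT signalling, 7 (28%) were higher and 4 (16%) lower in knockout colon, against 19.6% and 19.9% of all genes. By mix 7 (28%) were higher and 10 (40%) lower, against 35.8% and 34%. Rcan1, a calcineurin regulator that NFAT induces, had 36.2 and 32.4 CPM in knockout against 14.7 and 15.5 CPM in control colon (log2 fold change 1.19 ± 0.12, SE). Stim1, the calcium sensor of the endoplasmic reticulum, was lower with -0.64 ± 0.08, and Nfat5, the NFAT relative that responds to osmotic stress, was higher with 0.47 ± 0.08. By mix, Ppp3cc, a catalytic subunit of calcineurin, had 251.0 and 255.2 CPM with IL-6+IL-1β+IL-23 against 51.9 and 53.6 CPM with TGF-β+IL-6, and Rcan3 rose by 0.97 on the log2 scale.

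Of 26 genes of protein kinase C, Ras and MAP kinase signalling, 7 (26.9%) were higher and 6 (23.1%) lower in knockout colon, against 19.6% and 19.9% of all genes. By mix 9 (34.6%) were higher and 8 (30.8%) lower, against 35.8% and 34%. The named ones in colon were all lower: Hras by -0.64 ± 0.08, Elk1, a partner of serum response factor, by -0.88 ± 0.12, and Map2k2, a kinase of ERK, by -0.44 ± 0.08 (log2, SE), of which Map2k2 was no longer called with T cell marker scaling. Of 21 MAP kinase phosphatases and feedback inhibitors, to which Dusp2 is related, 7 (33.3%) were higher and 4 (19%) lower in knockout colon, against 19.6% and 19.9% of all genes. Dusp6, a phosphatase of ERK, had 563.2 and 584.7 CPM in knockout against 301.6 and 321.4 CPM in control colon, and Rasa1, which switches Ras off, had 154.2 and 165.3 CPM against 86.3 and 95.4 CPM. Dusp7, another ERK phosphatase, was lower (31.3 and 34.8 CPM against 54.8 and 65.6 CPM). By mix 11 of the 21 (52.4%) were higher and 6 (28.6%) lower, against 35.8% and 34%. Spry1, an inhibitor of Ras signalling, had 69.7 and 52.4 CPM with IL-6+IL-1β+IL-23 against 595.5 and 553.9 CPM with TGF-β+IL-6.

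Of 16 partners and genes linked to EGR2 and EGR3, 4 (25%) were higher and 0 lower in knockout colon, against 19.6% and 19.9% of all genes. The called genes included Rnf128, a ubiquitin ligase linked to anergy (8.77 and 9.96 CPM against 3.94 and 3.24 CPM), Nab1, a corepressor of EGR proteins (0.45 ± 0.08 on the log2 scale), and Bcl6 (0.37 ± 0.09). Egr4, named here after its values were seen, was called higher too (0.85 ± 0.23, SE, adjusted p = 0.0131, edgeR). By mix 5 of 15 (33.3%) were higher and 7 (46.7%) lower, against 35.8% and 34%. Tnfrsf9, the costimulatory receptor 4-1BB, had 987.7 and 1017 CPM with IL-6+IL-1β+IL-23 against 122.7 and 139.2 CPM with TGF-β+IL-6, and Ndrg1, linked to anergy, had 644.9 and 612.6 CPM against 168.2 and 167.4 CPM. Among the 7 that were lower, named here after their values were seen, were Egr4 (log2 change -3.28 ± 0.46, SE), Fasl (-2.55 ± 0.25) and Lag3 (-1.14 ± 0.09).

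Of 16 genes linked to NFAT and NR4A in T cell dysfunction, 4 (25%) were higher and 8 (50%) lower in knockout colon, against 19.6% and 19.9% of all genes. Ikzf2 (Helios) had 98.5 and 110.6 CPM in knockout against 43.9 and 50.7 CPM in control colon, and Havcr2 (the inhibitory receptor TIM-3) had 151.9 and 154.8 CPM against 89.4 and 80.4 CPM, while Cd7 was lower (47.2 and 47.9 CPM against 80.7 and 86.7 CPM). By mix, 5 of 13 (38.5%) were higher and 7 (53.8%) lower, against 35.8% and 34%. Tox, a regulator of exhausted T cells, had 5.76 and 6.27 CPM with IL-6+IL-1β+IL-23 against 30.1 and 33.2 CPM with TGF-β+IL-6, whereas the inhibitory receptor Tigit had 90.0 and 85.2 CPM against 10.03 and 7.57 CPM.

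Other immediate-early and early genes did not move as one group. In knockout colon 12 of 36 (33.3%) were higher and 14 (38.9%) lower, against 19.6% and 19.9% of all genes, with a median log2 change of -0.08 against 0.01. Atf3 (313.9 and 313.4 CPM against 191.0 and 189.4 CPM), Cd69, an early surface marker of activation (1137 and 1307 CPM against 741.9 and 752.3 CPM), and Rgs2 (158.7 and 170.8 CPM against 97.1 and 106.7 CPM) were higher, while Egr1 and the NR4A genes in the same libraries were not called. By mix 19 (52.8%) were higher and 14 (38.9%) lower, against 35.8% and 34%. Nfkbid, an atypical IκB protein, had 129.3 and 107.0 CPM with IL-6+IL-1β+IL-23 against 1163 and 1009 CPM with TGF-β+IL-6, and Zfp36l1, which promotes decay of AU-rich RNAs, had 40.6 and 37.5 CPM against 340.8 and 341.7 CPM. No gene of these 8 lists was called for genotype in culture by edgeR.

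The other scalings moved the colon calls of these lists together with those of all genes. With library totals 32.7% of all genes were higher and 9.63% lower, and with T cell marker scaling 44.1% and 5.27%. In that order, the calcium and NFAT list had 14 and 18 of 25 genes higher and 1 lower under both, and the MAP kinase feedback list had 12 and 14 of 21 higher and 2 and 1 lower. The EGR-linked list had 8 and 13 of 16 higher and 0 lower under both, and the kinase signalling list 8 and 13 of 26 higher and 4 and 2 lower. The early genes had 17 and 18 of 36 higher and 8 and 3 lower, and the dysfunction list 5 and 7 of 16 higher and 5 and 3 lower. The MYC partners had 3 and 6 of 15 higher (20% and 40%) and 1 lower (6.67%) under both. Their median was 0.21 below that of all genes on the TMM scale, a distance that a scaling leaves nearly unchanged for any list. The colon genes named by smallest p in all lists kept their direction under both scalings. This followed from the size of their changes and is not a separate check. The scalings moved the median gene up by 0.19 and 0.33, and the smallest decrease among the named genes was -0.44 (Map2k2).

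**Figure D4:**
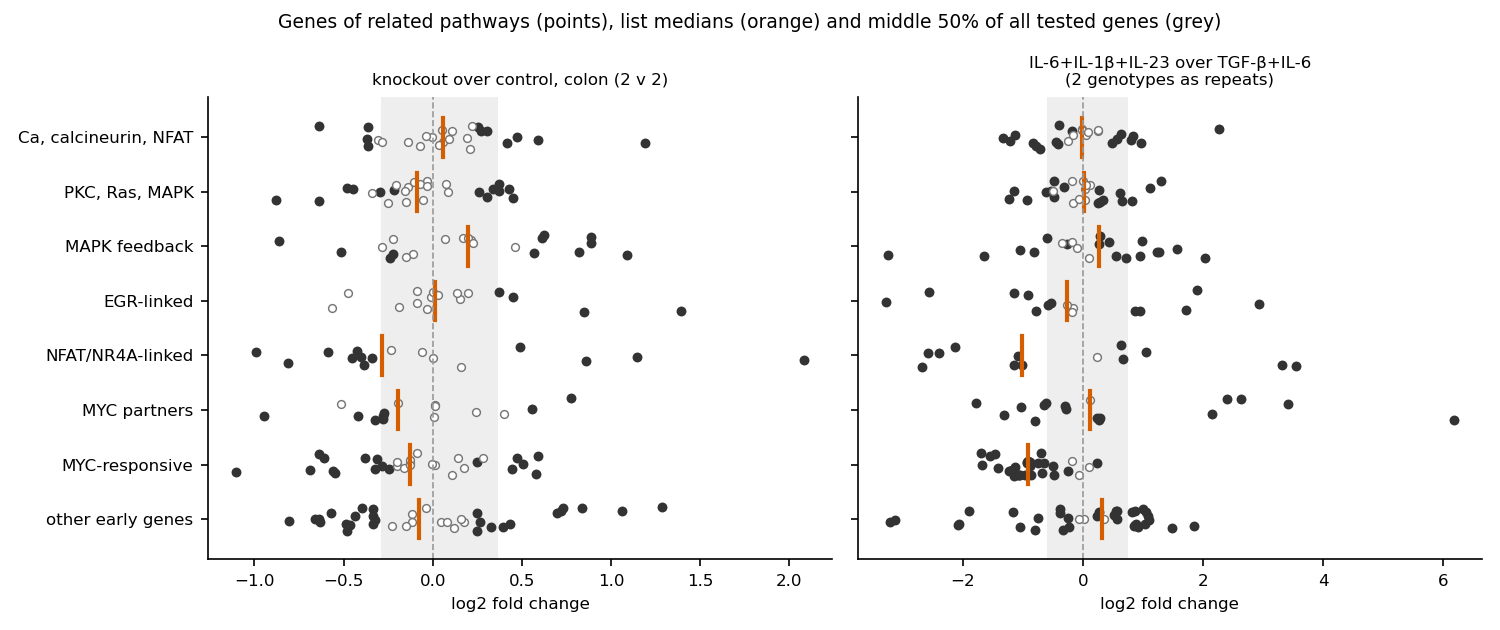
Log2 fold change of each gene of 8 related lists (points, filled where adjusted p was under 0.05), with list medians in orange and the middle 50% of all tested genes in grey, for knockout over control in colon and IL-6+IL-1β+IL-23 over TGF-β+IL-6 in culture. The MYC-responsive genes by mix, 26 of 30 lower, are the list gathered on one side of 0.

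Profiles were compared across the 8 libraries by the root mean square difference of centred log2 CPM over 8464 genes with a mean of at least 10 CPM. This is a description, in which colon and culture differ most. Egr2 and Nr4a2 were each other's nearest gene of all 8464, at 0.13. Egr3 and Nfatc1 were the 7th nearest gene to each other, at 0.18, and Nr4a1 had Nr4a2 as its nearest member at 0.26. Egr1 was nearest to Errfi1, an inhibitor of the EGF receptor, at 0.13, and farther from every other member, the closest being Egr2 at 0.87. Nr4a3 had no close gene, its nearest being Nav2 at 0.47. Myc was nearest to Guk1 (guanylate kinase) at 0.07 and Psmb2 (a proteasome subunit) at 0.08, Nfatc2 to Bin2 and Arhgap30, and Dusp2 to Rab22a.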

How the data were processed

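RNA was sequenced from 8 libraries. Per the submitters' processing notes, Trim Galore, Bowtie2, featureCounts, edgeR and DESeq2 were used with build mm10, with no roles given. The deposited values are raw read counts per gene, not normalized, per the file headers. For strand, read type and versions: not given in the sources used here. Colon rows were given GENCODE M21 symbols by Ensembl ID (54409 of 54446 matched) and joined to culture rows by symbol (54185 genes). Symbols turned into dates (27 per colon file, 26 per culture file, at most 0.269% of counts) were neither named nor joined.

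Genes were tested in R 4.3.3 with edgeR 4.0.16 (quasi-likelihood F-test, filterByExpr, TMM, Benjamini-Hochberg over all genes tested, threshold 0.05). The SE is the log2 fold change over the root of F. Fits were of the colon libraries (2 residual degrees of freedom), of the culture libraries with terms for mix and genotype (1) and of all 8 libraries for the difference of genotype effects (3). Single libraries were set against each other as log2 ratios with a prior count of 2 and no test, and counted past 2-fold where either reached 5 CPM. Alternatives were DESeq2 1.42.0, other scalings, no filter, leaving out each colon library, a replicate block, a fit of all libraries and a prior count of 0.5. Each fit was first tested on simulated counts in which 200 genes were changed.

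Replicates differed beyond counting error (chi-square per gene of 5.03 in knockout and 6.85 in control colon). Nothing says that they came from separate mice, so p-values measure only the spread between libraries, which may be technical. Intervals of 95% on counts cover counting error only. The members and lists were chosen with earlier results of these data known, and no list was tested. Besides the members and Rora, up to 3 genes per list with the smallest p in colon and up to 2 by mix are named, and the nearest profiles of each member. Promoter sequences are from RefSeq.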

Additional observations from a re-analysis of the deposited data

Results flagged for a closer look

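Among the members and Rora, Myc and Rora had genotype effects that differed between colon and culture by a test of the difference itself (edgeR, fit of all 8 libraries). Of the 24 related genes named for colon by smallest p, 21 differed too, against 17.3% of the 14957 genes tested. These 24 were picked on the same colon libraries that enter the difference, so this count is not a separate test. For Myc the difference was -0.71 on the log2 scale (adjusted p = 6.52e-04): its log2 fold change was -0.70 in colon and 0.01 in culture. For Rora, the deleted gene, the difference was 0.4337 (adjusted p = 0.0273). Rora was lower in the knockout in both, with log2 fold changes of -0.94 in colon and -1.38 in culture, so its reads fell less in colon. In knockout colon most T cell markers were lower, and most markers of epithelium, fibroblasts, B and plasma cells and macrophages were higher. Dendritic cell markers were mixed, with 5 of 8 higher and 2 lower. Zbtb46 had 10.2 and 9.68 CPM in knockout against 13.6 and 14.9 CPM in control colon, and Xcr1 32.1 and 36.7 CPM against 44.0 and 40.7 CPM. The summed neutrophil and mast cell markers were lower, with most of that sum from Kit. The part of these cells in either difference was not tested.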

How the results depend on the processing

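Myc kept its direction and call in colon (log2 fold changes from -0.72 to -0.36) and in the colon minus culture difference (-0.74 to -0.41) under all alternatives, and the mix calls (3 members higher, 7 lower) and the 0 members called for genotype in culture held under all tried there. Members called higher in colon numbered 4 with library totals and 7 with T cell marker scaling, an alternative chosen after seeing the data; without 1 library they numbered 0 to 1. Members called lower in colon numbered 2 with no filter, 2 by DESeq2 and 1 to 2 without 1 library, where control replicate 1 left out added Dusp2 (-0.31). In the difference, 1 member was higher with library totals and 2 with T cell marker scaling, while 3 were lower with no filter, 2 by DESeq2 and 1 to 2 without 1 library, where control replicate 1 left out added Egr3 (-0.44). The culture call of Rora was lost with no filter (-1.39, adjusted p = 0.0943, edgeR). With the replicate block, members called lower were 2 in colon and 2 in the difference, adding Nfatc1 (-0.20 and -0.33), and 1 stayed higher in colon. Same-numbered colon libraries deviated together (correlation 0.30 over 7811 genes), but 2 pairs do not establish a pairing.

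Reversed colon values with library totals were 0.15 for Nr4a1, 0.19 for Nr4a2 and 0.060 for Dusp2; with T cell marker scaling 0.29 for Nr4a1, 0.33 for Nr4a2, 0.13 for Nfatc1 and 0.20 for Dusp2; with no filter -0.0088 for Egr3. Without 1 library the colon values ran from -0.047 to 0.12 for Egr1, -0.097 to 0.10 for Egr3, -0.14 to 0.012 for Nr4a1, -0.082 to 0.050 for Nr4a2, -0.039 to 0.067 for Nr4a3, -0.050 to 0.18 for Nfatc2 and -0.31 to 0.047 for Dusp2. In the difference, library totals reversed Egr1 (0.13), Nr4a1 (0.13), Nr4a2 (0.0058) and Dusp2 (0.016), T cell marker scaling reversed Egr1 (0.24), Nr4a1 (0.24), Nr4a2 (0.11) and Dusp2 (0.12), and without 1 library the values ran from -0.16 to 0.024 for Egr1, -0.13 to 0.0039 for Nr4a1 and -0.36 to 0.012 for Dusp2. None of these reversed values was called except Nr4a1 and Nr4a2 in colon with T cell marker scaling. The cause was not tested, beyond the shift of all genes that a scaling makes.

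Over all genes, colon calls were 2566 higher and 2607 lower, against 4284 and 1262 with library totals, 5780 and 690 with T cell marker scaling and 1634 higher by DESeq2. Differences between colon and culture were 1153 higher and 1428 lower, against 2273 and 568 with library totals, 3264 and 321 with T cell marker scaling, 637 higher by DESeq2 and 725 higher without knockout replicate 2. Culture genotype calls ranged from 0 to 10 higher and from 0 to 5 lower. With 1 library per combination in culture, no genotype difference within a mix could be tested.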
